A study of Arabidopsis thaliana with 6 samples.

Results

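The microRNAs miR170 and miR171 and their target mRNAs, 3 members of the SCARECROW-LIKE (SCL) branch of the GRAS transcription factor family, were followed through the small RNAs bound to ARGONAUTE1 (AGO1). The members were chosen by gene identity, with earlier results of these data known. They are the 4 miRNA loci MIR170 (AT5G66045), MIR171A (AT3G51375), MIR171B (AT1G11735) and MIR171C (AT1G62035) and the 3 target loci SCL6 (AT4G00150), SCL22 (AT3G60630) and SCL27 (AT2G45160). All 7 were present among the 32420 loci of the deposited table, which holds 178 annotated miRNA loci and 26712 protein-coding loci.

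The tissue was the shoot of untreated Arabidopsis thaliana at 20 days, after 6 days on MS medium and 14 on soil, taken at 15:00. AGO1 was immunoprecipitated from it and the bound small RNAs were sequenced. There were 2 libraries for each of 3 genotypes: the triple mutant ein5-1 dcl4-2 dcl2-1 (called ein5 dcl4 dcl2), the double mutant ein5-1 dcl4-2 (called ein5 dcl4) and wild-type Col-0. Both mutants lack EIN5 and DCL4, and the triple mutant lacks DCL2 as well. No single mutants were analysed here, so an effect of ein5 alone cannot be told apart from one of dcl4 alone. All 6 libraries came from the same kind of immunoprecipitation, so the amount of a small RNA and its loading onto AGO1 cannot be told apart.

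In plants, a miRNA is cut from a hairpin transcript by DCL1 and loaded onto AGO1, which slices mRNAs with a nearly complementary site. miR171 is a conserved miRNA whose targets SCL6 (also HAM3 or LOM3), SCL22 (HAM2, LOM2) and SCL27 (HAM1, LOM1) keep shoot meristem cells undifferentiated and promote branching. EIN5, also named XRN4, is the cytoplasmic exonuclease that removes uncapped RNA, including the downstream fragments left by miRNA slicing. DCL4 and DCL2 make siRNAs of different lengths from double-stranded RNA.

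The mature sequences show which loci can be told apart by their reads. Each is written 5′ to 3′ as RNA, with bases 2 to 8, the seed, in capitals, and is credited to RefSeq on the build TAIR10.1.
miR170: uGAUUGAGccgugucaauauc
miR171a: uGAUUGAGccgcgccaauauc
miR171b: uUGAGCCGugccaauaucacg
miR171c: uUGAGCCGugccaauaucacg
Opposite strand of the miR170 and miR171a duplexes: uAUUGGCCugguucacucaga
miR170 and miR171a share the seed GAUUGAG, and miR171b and miR171c share the seed UGAGCCG. Counted from the 5′ end of miR171a, miR170 differs from it by C12U and C14U. miR171b and miR171c begin 3 bases further in and differ from miR171a by C12U over the 18 bases that align.

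The hairpins of MIR171A (chr3:19073434-19073556, plus strand) and MIR171B (chr1:3961348-3961464, minus strand) are shown with both annotated mature strands in capitals, because the shared and the private stretches decide which reads belong to 1 locus.
MIR171A: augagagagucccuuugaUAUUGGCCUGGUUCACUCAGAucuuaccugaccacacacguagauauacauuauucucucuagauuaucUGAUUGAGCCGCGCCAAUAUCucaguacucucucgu
MIR171B: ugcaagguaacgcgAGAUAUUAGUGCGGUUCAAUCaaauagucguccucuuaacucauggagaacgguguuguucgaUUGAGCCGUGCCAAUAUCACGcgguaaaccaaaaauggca
MIR171C lies on the same chromosome (chr1:22930089-22930204, minus strand) and MIR170 on another (chr5:26411580-26411672, minus strand). No annotated gene overlapped any of the 7 members.

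The 3 targets are single-exon genes (SCL6 chr4:57140-59495, SCL22 chr3:22410240-22412663, SCL27 chr2:18617862-18620451, all minus strand), and the coding sequence of each held the same site, shown 5′ to 3′ with the bases that face the miR171a seed in capitals.
SCL6 (chr4:58411-58431, minus strand): gauauuggcgcggCUCAAUCa
SCL22 (chr3:22411544-22411564, minus strand): gauauuggcgcggCUCAAUCa
SCL27 (chr2:18619128-18619148, minus strand): gauauuggcgcggCUCAAUCa
All 21 bases of miR171a pair with this site. miR170 left 2 bases unpaired by Watson-Crick rules, both of them G:U pairs, and miR171b and miR171c left 3, of which 1 was a G:U pair. Among 29 other GRAS family genes the best ungapped site for these 4 mature miRNAs left 5 to 9 bases unpaired, and the fewest were at SCL15, also named HAM4.

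Because miR171a is the exact complement of its targets, a miR171a read matched 4 places in the genome, namely its own hairpin and the opposite strand of SCL6, SCL22 and SCL27. A miR171b or miR171c read matched both of those hairpins, and a read of the opposite duplex strand matched both MIR170 and MIR171A. MIR171B and MIR171C shared 5 stretches of 21 bases, as did MIR170 and MIR171A, and MIR171A shared 1 with each SCL gene. How the authors treated reads with several matches, and whether strand was used, is not given in the sources used here. Small RNA counted at an SCL locus can therefore include the miRNA itself.

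Values below are size-factor-normalised reads, that is, the reads of a locus divided by the size factor of its library. This factor is a median ratio over 2300 loci with reads in all 6 libraries, and it does not follow total reads. Library a of Col-0 and library a of ein5 dcl4 held 1217707 and 1292727 reads, but 1 read was worth 0.185 and 1.92 normalised reads there. The deposited table gave 1 mean per genotype, from which the whole reads of both libraries were recovered at every locus above 0. Recovered totals were 836879 to 1292727 reads per library, and 1 read was worth 1.71 and 1.9 normalised reads in ein5 dcl4 dcl2, 1.92 and 2.79 in ein5 dcl4, and 0.185 and 0.257 in Col-0. The libraries of a genotype are called a and b, as no replicate number could be given to them. Libraries a and b differed by more than counting noise in each genotype (chi-square per degree of freedom of 5.82 in ein5 dcl4 dcl2, 5.26 in ein5 dcl4 and 3.18 in Col-0). EIN5 held 0 or 1 read in the mutant libraries and 26 and 5 in Col-0, and DCL2 had 0 to 2 reads per library. DCL4 had 4 and 2 reads in ein5 dcl4 dcl2, 4 and 8 in ein5 dcl4, and 0 and 4 in Col-0. It was called higher in ein5 dcl4 than Col-0 (log2 difference 3.32, limma adjusted p 0.0146). Of the 7830 protein-coding loci other than the members, 55.4% were called higher in that comparison. Small RNAs at a locus do not measure its mRNA, so the counts at EIN5, DCL2 and DCL4 do not check the genotypes.

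Normalised values of MIR171B and MIR171C were highest in ein5 dcl4 dcl2 and lowest in ein5 dcl4, whereas their reads were most numerous in Col-0. Their order between ein5 dcl4 dcl2 and Col-0 turned when table totals or miRNA totals were made equal. MIR171B, the source of miR171b, held 63 and 56 reads in ein5 dcl4 dcl2, 1 and 1 in ein5 dcl4, and 108 and 66 in Col-0. After normalisation these came to 108 and 106 in ein5 dcl4 dcl2, 1.92 and 2.79 in ein5 dcl4, and 20.0 and 16.9 in Col-0. The 3 genotypes did not overlap. MIR171C, which encodes the same mature miRNA, held 63 and 56 reads in ein5 dcl4 dcl2, 1 and 1 in ein5 dcl4, and 112 and 68 in Col-0. The reads at MIR171B and MIR171C were equal in number in all 4 mutant libraries and differed by 4 and 2 reads in the Col-0 libraries, so these loci are not separate measurements.

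MIR171A, the source of miR171a, held 12 and 4 reads in ein5 dcl4 dcl2, 0 and 1 in ein5 dcl4, and 33 and 19 in Col-0. Its normalised values were 20.5 and 7.60 in ein5 dcl4 dcl2, 0 and 2.79 in ein5 dcl4, and 6.11 and 4.88 in Col-0. The order of the genotypes was that of MIR171B, but the ein5 dcl4 dcl2 libraries lay far apart. MIR170 held 2 and 0 reads in ein5 dcl4 dcl2, 0 and 0 in ein5 dcl4, and 10 and 4 in Col-0. The count of 0 in ein5 dcl4 allows up to 5.75 and 8.37 normalised reads, taking 3 reads as the upper limit, while Col-0 stood at 1.85 and 1.03. A change at MIR170 was thus not detectable at this depth. These limits cover counting error only, because the reads carried no molecular identifiers.

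**Figure D1:**
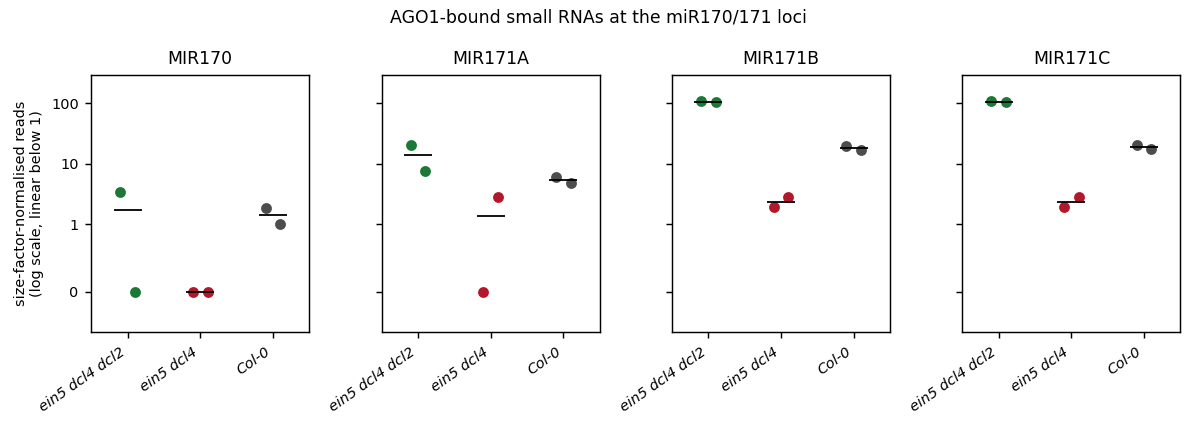
Size-factor-normalised reads (log axis, linear below 1) at the 4 miRNA loci, with 1 point per library and a bar at the mean of the 2 libraries of each genotype. MIR171B and MIR171C stood at about 107 in ein5 dcl4 dcl2, at 2.35 in ein5 dcl4 and at 18.5 and 19.1 in Col-0.

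SCL6, alone among the 3 targets, passed the test as higher in ein5 dcl4, as set out below. It held 3 and 6 reads in ein5 dcl4 dcl2, 44 and 33 in ein5 dcl4, and 30 and 30 in Col-0. In normalised reads it held 5.12 and 11.4 in ein5 dcl4 dcl2, 84.3 and 92.0 in ein5 dcl4, and 5.55 and 7.70 in Col-0. The ein5 dcl4 libraries stood clear of the other 4, which overlapped one another. SCL22 held 3 and 3 reads in ein5 dcl4 dcl2, 6 and 7 in ein5 dcl4, and 43 and 18 in Col-0, or 5.12 and 5.70, 11.5 and 19.5, and 7.96 and 4.62 normalised reads in the same order. SCL27 held 5 and 2 reads in ein5 dcl4 dcl2, 6 and 9 in ein5 dcl4, and 37 and 27 in Col-0, or 8.54 and 3.80, 11.5 and 25.1, and 6.85 and 6.93 normalised reads. At both SCL22 and SCL27 the ein5 dcl4 values were the highest of the 3 genotypes after normalisation, although Col-0 had the most reads.

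**Figure D2:**
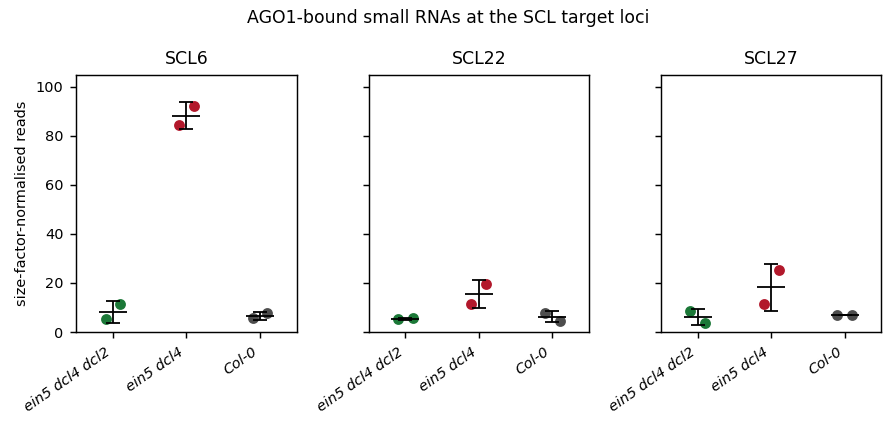
Size-factor-normalised reads at the 3 SCL target loci, with 1 point per library and the mean ± SD of the 2 libraries of each genotype. SCL6 reached 88.1 ± 5.49 in ein5 dcl4, while SCL22 and SCL27 averaged 15.5 ± 5.68 and 18.3 ± 9.62 there.

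The first comparison, ein5 dcl4 against Col-0, asks what is bound to AGO1 when EIN5 and DCL4 are both absent. MIR171B averaged 2.35 ± 0.618 normalised reads in ein5 dcl4 and 18.5 ± 2.16 in Col-0 (SD, n = 2), a log2 difference of -2.55 ± 0.30 (SE) with a limma adjusted p of 0.00417. MIR171C gave -2.59 ± 0.30 with an adjusted p of 0.00400. After the library factors the ratio of ein5 dcl4 to Col-0 in pooled reads at MIR171B was 0.121, with a 95% counting interval of 0.0146 to 0.445, since ein5 dcl4 had 2 reads in all. Without library a or b of Col-0 neither call held, but with 1 Col-0 library left most calls over all loci were lost too. The log2 differences without a and without b were -2.43 and -2.66 for MIR171B and -2.47 and -2.71 for MIR171C. MIR171A and MIR170 did not pass (adjusted p 0.138 and 0.260).

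SCL6 was higher in the double mutant ein5 dcl4, at 88.1 ± 5.49 against 6.63 ± 1.52 in Col-0, a log2 difference of 3.56 ± 0.44 with a limma adjusted p of 0.00458. SCL22 and SCL27 did not pass. SCL22 averaged 15.5 ± 5.68 in ein5 dcl4 and 6.29 ± 2.36 in Col-0 (log2 difference 1.17 ± 0.43, adjusted p 0.0770), and SCL27 averaged 18.3 ± 9.62 and 6.89 ± 0.0551 (1.19 ± 0.54, adjusted p 0.133). The direction at SCL22 and SCL27 turned to lower when table totals were made equal or trimmed-mean factors were used. The SCL6 call was lost with equal table totals (log2 difference 0.39, limma adjusted p 0.468), and the difference was 4.28 with equal miRNA totals. The call was also lost when either Col-0 library was left out, as were most calls over all loci. The SCL6 difference was then 3.36 without a and 3.76 without b. The ratio of raw SCL6 reads, 77 in the ein5 dcl4 libraries together to 60 in Col-0, was 1.28, so the size of the rise rests on the library factors.

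In all, 1 member was higher and 2 were lower, where 38.7% of all 11376 tested loci were higher and 6.45% lower, 55.4% of the 7830 other protein-coding loci were higher and 2.39% lower, and 12.5% of the 128 other miRNA loci were higher and 28.1% lower. The median log2 difference was -2.14 for the 4 MIR loci against -0.68 for the other miRNA loci. MIR171B and MIR171C both enter the former, though they are not separate measurements. The median of the 3 SCL loci was 1.19, against 2.13 for the other protein-coding loci. Most of the latter were tested only because of their ein5 dcl4 reads, as given next. The filter on low values, a mean of at least 1 normalised read over the 6 libraries, was passed by all 7 members, with or without the ein5 dcl4 libraries. Of the 7830 other protein-coding loci 5317 passed it only through ein5 dcl4. With the filter set on the other 4 libraries, a choice made after seeing the data, 26.3% of 2711 other protein-coding loci were higher and 3.87% lower. Over all 6353 loci tested with that filter the median log2 difference was -0.42, against 1.49 over all loci with the main filter. The background medians thus depend on the filter.

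In the authors' deposited table for ein5 dcl4 over Col-0, SCL6 had a log2 fold change of 3.74 with an adjusted p of 3.8e-06. MIR171B and MIR171C stood at -3.02 and -3.07 in the authors' deposited table, with adjusted p of 0.0544 and 0.04999. These nearly identical loci thus fell on opposite sides of 0.05.

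The second comparison, ein5 dcl4 dcl2 against ein5 dcl4, asks which small RNAs change when DCL2 is removed as well. MIR171B averaged 107 ± 0.863 in ein5 dcl4 dcl2 and 2.35 ± 0.618 in ein5 dcl4, a log2 difference of 5.02 ± 0.30 with a limma adjusted p of 0.000781, and MIR171C gave the same values. The ratio of read rates was 47.1, with a 95% counting interval of 12.8 to 394. Both calls held in each of the other scalings, filters, pseudocounts and leave-one-out fits that were run, but with equal miRNA totals the log2 difference was 1.36 (adjusted p 0.0127 and 0.0128). MIR171A rose to 14.1 ± 9.12 in ein5 dcl4 dcl2, against 1.39 ± 1.97 in ein5 dcl4 (log2 difference 2.80 ± 0.79, adjusted p 0.0361). That call was lost when ein5 dcl4 dcl2 library a or b was left out (adjusted p 0.148 and 0.0566), when ein5 dcl4 library a was (0.143) and when either Col-0 library was (0.0936 and 0.0956). It was also lost with equal miRNA totals (log2 difference 0.18, adjusted p 0.877), a pseudocount of 0.1 (0.115), no filter on low values (0.0627), the filter set without the ein5 dcl4 libraries (0.0519) or only the 2 genotypes in the fit (0.0902).

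SCL6 fell to 8.26 ± 4.44 in ein5 dcl4 dcl2, against 88.1 ± 5.49 in ein5 dcl4, a log2 difference of -3.35 ± 0.44 with a limma adjusted p of 0.00463. This call held in every alternative run, with -6.74 under equal miRNA totals. SCL22 at 5.41 ± 0.407 against 15.5 ± 5.68 and SCL27 at 6.17 ± 3.35 against 18.3 ± 9.62 did not pass (log2 differences -1.32 ± 0.43 and -1.42 ± 0.54, adjusted p 0.0543 and 0.0872). Altogether 3 members were higher and 1 was lower in ein5 dcl4 dcl2, where 11.3% of all loci were higher and 35.9% lower, 84.4% of the other miRNA loci were higher and 1.56% lower, and 4.53% of the other protein-coding loci were higher and 50.6% lower. The medians were 3.91 for the MIR loci against 3.70 for the other miRNA loci. The median of the SCL loci was -1.42, against -2.10 for the other protein-coding loci. With the filter set on the 4 libraries other than ein5 dcl4, 8.82% of the other protein-coding loci were higher and 19.4% lower. Over all 6353 loci tested with that filter the median log2 difference was 0.57, against -1.33 over all loci with the main filter. The sign of this background thus turned with the filter. The authors' deposited table runs the other way round, as ein5 dcl4 over ein5 dcl4 dcl2, and gave -5.55 for MIR171B (adjusted p 5.4e-05) and 3.43 for SCL6 (0.000607).

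The third comparison, ein5 dcl4 dcl2 against Col-0, leaves DCL2 out of the mutant side. MIR171B averaged 107 ± 0.863 in ein5 dcl4 dcl2 and 18.5 ± 2.16 in Col-0, a log2 difference of 2.48 ± 0.30, and MIR171C gave 2.43 ± 0.30 (limma adjusted p 0.0369 and 0.0384). These rises turned to -0.34 and -0.39 with equal table totals and to -0.84 and -0.88 with equal miRNA totals. The calls also ended with trimmed-mean rescaling (limma adjusted p 0.0623 and 0.0670). They ended too in fits without 1 of the 4 libraries compared. Such a fit leaves 1 library in a genotype and loses calls over all loci, so it cannot decide about these loci. MIR171A, at 14.1 ± 9.12 against 5.49 ± 0.873, did not pass (adjusted p 0.757).

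SCL6, SCL22 and SCL27 did not pass in this comparison, with log2 differences of 0.21 ± 0.44, -0.15 ± 0.43 and -0.22 ± 0.54 and limma adjusted p of 0.995, 1 and 1. The genotypes overlapped at all 3. With equal table totals or equal miRNA totals all 3 were called lower, where 39.7% and 11% of all loci were lower. In all, 2 members were higher and 0 lower (0 also at an unadjusted limma p under 0.05, and 0 by limma-voom), where 1.08% of all loci were higher and 0.299% lower, 53.1% of the other miRNA loci were higher and 0.781% lower, and 0.473% of the other protein-coding loci were higher and 0.345% lower. The median for the other miRNA loci was 3.08, against 1.75 for the 4 MIR loci.

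**Figure D3:**
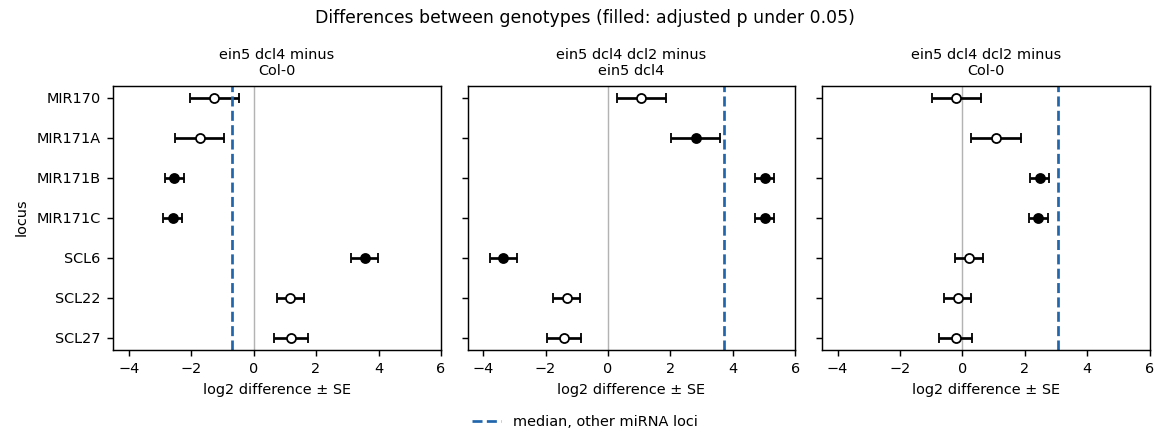
Log2 differences ± SE of the 7 members in the 3 comparisons, filled where the limma adjusted p was under 0.05, with a line at the median of the other miRNA loci. SCL6 and the MIR171B and MIR171C pair moved in opposite directions in ein5 dcl4 minus Col-0 and in ein5 dcl4 dcl2 minus ein5 dcl4.

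Values that do not depend on how libraries are scaled were set beside these. The summed SCL loci came to 0.0786 and 0.0948 times the summed MIR loci in ein5 dcl4 dcl2, to 28.0 and 16.3 times in ein5 dcl4, and to 0.418 and 0.478 times in Col-0. The 3 genotypes did not overlap in this ratio, which in ein5 dcl4 rests on 2 and 3 MIR reads. A miR171a read may count on both sides of the ratio, and a miR171b or miR171c read at both of its hairpins. SCL6 made up 27.3% and 54.5% of the summed SCL reads in ein5 dcl4 dcl2, 78.6% and 67.3% in ein5 dcl4, and 27.3% and 40.0% in Col-0. Its share was thus highest in both ein5 dcl4 libraries, with SCL22 and SCL27 counted in the same library. The share of the 3 SCL loci in all protein-coding reads was instead lowest in ein5 dcl4. It was 0.0739% and 0.0849% in ein5 dcl4 dcl2, 0.0046% and 0.0062% in ein5 dcl4, and 0.0569% and 0.0538% in Col-0.

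The 4 MIR loci took 0.0132% and 0.0143% of all miRNA-locus reads in ein5 dcl4 dcl2, 0.00419% and 0.00747% in ein5 dcl4, and 0.0330% and 0.0240% in Col-0. These sums may count 1 read at both MIR171B and MIR171C, so the counting error was taken from MIR171B alone. MIR171B took 0.00592% and 0.00692% in ein5 dcl4 dcl2, 0.00209% and 0.00249% in ein5 dcl4, and 0.0135% and 0.0101% in Col-0. Its exact (Clopper-Pearson) 95% intervals were 0.00455% to 0.00758% and 0.00523% to 0.00899% in ein5 dcl4 dcl2, 5.3e-05% to 0.0117% and 6.3e-05% to 0.0139% in ein5 dcl4, and 0.0111% to 0.0163% and 0.00782% to 0.0129% in Col-0. The interval of ein5 dcl4 dcl2 library b overlapped that of Col-0 library b, and the wide ones of ein5 dcl4 overlapped all the others. The shares of ein5 dcl4 dcl2 thus stood below those of Col-0, with overlapping intervals in 1 pair of libraries. Overlap of intervals does not test a difference, and the shares were not tested. The normalised values of MIR171B, in contrast, were higher in ein5 dcl4 dcl2.

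The reads that match both MIR171A and its targets could be bounded. If a read was counted at every place it matched, the number of miR171a reads in a library cannot exceed the lowest count among MIR171A, SCL6, SCL22 and SCL27. That lowest count was 3 and 2 in ein5 dcl4 dcl2, 0 and 1 in ein5 dcl4, and 30 and 18 in Col-0. MIR171A and the SCL loci held similar numbers of reads in Col-0, from 18 to 43. In ein5 dcl4, SCL6 held 44 and 33 reads while MIR171A held 0 and 1. The part that miR171a reads take in the SCL counts of each genotype was not tested, since the table gives no position or length of a read.

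**Figure D4:**
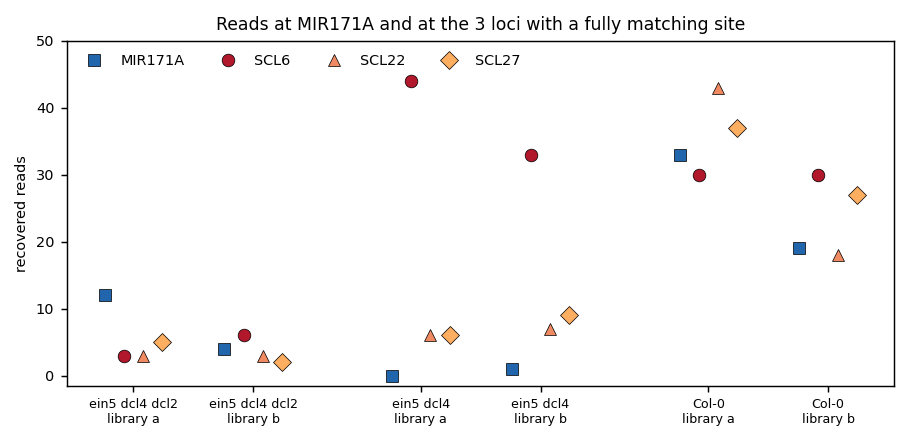
Recovered reads in each of the 6 libraries at MIR171A and at the 3 SCL loci that hold its full complement. The 4 loci lay between 18 and 43 reads in Col-0, whereas in ein5 dcl4 SCL6 held 44 and 33 reads and MIR171A 0 and 1.

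Levels were also compared per length of locus, in normalised reads per kilobase. In Col-0 the order was MIR171C at 165 ± 20.0, MIR171B at 158 ± 18.5, MIR171A at 44.7 ± 7.10, MIR170 at 15.5 ± 6.27, SCL6 at 2.81 ± 0.643, SCL27 at 2.66 ± 0.0213 and SCL22 at 2.60 ± 0.975. MIR171C and MIR171B did not differ beyond their spread, nor did the 3 SCL loci. In ein5 dcl4 the highest of the 7 was SCL6 at 37.4 ± 2.33, above MIR171B at 20.1 ± 5.28. In ein5 dcl4 dcl2 MIR171B stood at 915 ± 7.38 and SCL6 at 3.51 ± 1.88.

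The other GRAS genes carry no site of this quality and were read from a list of 29, of which 21 passed the filter on low values. Of these 15 had a mean under 1 in the 4 libraries other than ein5 dcl4, and so were tested only because of their ein5 dcl4 reads and could hardly come out lower there. The 17 of 21 called higher in ein5 dcl4 than Col-0 (81%, with 0 called lower, 0 at an unadjusted limma p under 0.05 and 0 by limma-voom) and the 16 of 21 called lower in ein5 dcl4 dcl2 than ein5 dcl4 (76.2%, with 0 higher by the same 3 counts) are therefore partly set by that filter. Over all 11376 tested loci 38.7% were higher in the first of these comparisons and 35.9% lower in the second. The count of 17 fell most without a Col-0 library, where most calls over all loci were lost too. The count of 16 fell in every fit without a single library, and the share of all loci called lower fell too.

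With the filter set on the 4 libraries other than ein5 dcl4, a choice made after seeing the data, 6 GRAS genes were tested, namely RGA, GAI, SHR, SCL4, SCL8 and SCL30. In that fit 5 of the 6 were higher in ein5 dcl4 than in the wild type, and 5 of the 6 were lower in ein5 dcl4 dcl2 than in ein5 dcl4. Of all 6353 loci tested in it, 11.7% were higher in the first of these comparisons and 9.21% lower in the second. RGA and GAI, DELLA repressors of gibberellin responses, had the smallest adjusted p. RGA held 2 and 1 reads in ein5 dcl4 dcl2, 5110 and 2760 in ein5 dcl4, and 7 and 9 in Col-0, and averaged 8742 ± 1477 normalised reads in ein5 dcl4. GAI held 3 and 2 reads in ein5 dcl4 dcl2, 458 and 199 in ein5 dcl4, and 13 and 9 in Col-0. Both had their reads almost wholly in the double mutant.

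RGA rose by 11.62 ± 0.36 and GAI by 7.70 ± 0.35 on the log2 scale in ein5 dcl4 over Col-0 (limma adjusted p 0.000137 and 0.000398). In ein5 dcl4 dcl2 against ein5 dcl4 the log2 differences were -11.24 ± 0.36 at RGA and -7.01 ± 0.35 at GAI (limma adjusted p 0.000179 and 0.000501). RGA and GAI shared 32 stretches of 21 bases, of 2302 in RGA, so reads from these stretches could belong to either. How many reads did is not known, because no position of a read is given. RGA and GAI may thus not be separate measurements. LAS, a regulator of axillary meristems, held 0 and 0 reads in ein5 dcl4 dcl2, 17 and 8 in ein5 dcl4, and 1 and 0 in Col-0. SCL7 held 0 and 0 reads in ein5 dcl4 dcl2, 7 and 7 in ein5 dcl4, and 1 and 2 in Col-0. SCL15, named after its values were seen because it is the HAM gene that lacks the fully paired site, held 0 and 1 reads in ein5 dcl4 dcl2, 5 and 8 in ein5 dcl4, and 0 and 0 in Col-0. These 3 genes passed the filter only through ein5 dcl4, so no test is given for them.

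Against Col-0, ein5 dcl4 dcl2 had 0 called GRAS genes in either direction, with 0 at an unadjusted limma p under 0.05, while limma-voom called 8 higher and 0 lower. Over all 11376 loci limma-voom called 42.2% higher and 2.42% lower.

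**Figure D5:**
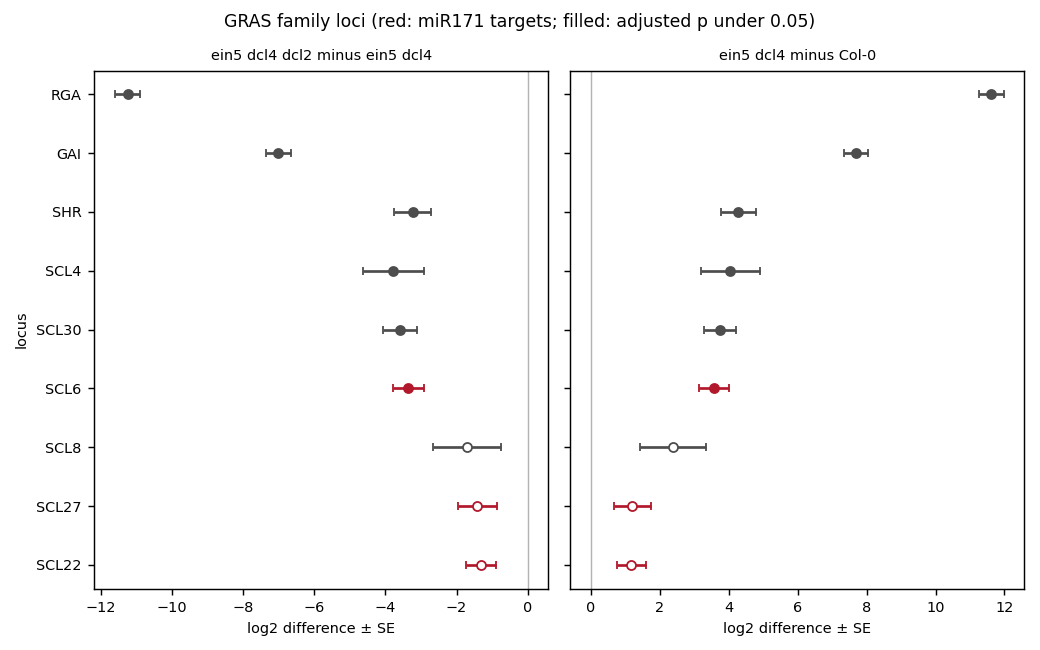
Log2 differences ± SE of the 6 other GRAS genes with a mean of at least 1 in the 4 libraries other than ein5 dcl4 and the 3 miR171 targets (red) for ein5 dcl4 dcl2 minus ein5 dcl4 and for ein5 dcl4 minus Col-0, filled where the limma adjusted p was under 0.05. RGA and GAI stood apart at 11.62 and 7.70 in ein5 dcl4 minus Col-0, while SCL6 was at 3.56.

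SCL27 is known to repress chlorophyll synthesis through PORC, so the 3 protochlorophyllide oxidoreductase genes were read as well. PORB held 1 and 1 reads in ein5 dcl4 dcl2, 25 and 16 in ein5 dcl4, and 25 and 14 in Col-0. After normalisation PORB was at 1.80 ± 0.136, 46.2 ± 2.3 and 4.11 ± 0.733 in the same order, and rose by 3.22 ± 0.31 on the log2 scale in ein5 dcl4 over Col-0 (limma adjusted p 0.00268). With equal table totals that difference was 0.14 (adjusted p 0.753). PORA was listed at 0 reads in all 6 libraries and PORC held 1 read in all, so neither was tested.

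The loci whose pattern over the 6 libraries was most like that of the summed MIR loci, by Euclidean distance between centred log2 profiles among 92 other miRNA loci with a mean of at least 10, were MIR173, MIR773a and MIR158b (distances 0.55, 0.91 and 1.01). MIR173 averaged 11004 ± 2862 in ein5 dcl4 dcl2, 349 ± 90.1 in ein5 dcl4 and 1840 ± 344 in Col-0. For the summed SCL loci the nearest of 791 protein-coding loci were EMB3135, AT5G43730 and EP1 (0.39, 0.54 and 0.70). EMB3135 averaged 3.61 ± 0.271 in ein5 dcl4 dcl2, 24.04 ± 1.5 in ein5 dcl4 and 2.82 ± 0.724 in Col-0. EP1 averaged 3.61 ± 0.271, 27.4 ± 7.25 and 3.53 ± 0.809 in the same order. EMB3135 and EP1 reached a mean of 10 only through ein5 dcl4, so their likeness to the SCL loci is partly set by that filter.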

How the data were processed

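The labels describe AGO1 immunoprecipitation of small RNAs, of which only read 1 was used. The tools that the submitters' processing notes name are DESeq2, SAMtools 1.9 and Bowtie 1.2.2, and the build is TAIR10. Per the file headers the authors' values are TPM, but they are treated here as a signal: they equalled mean reads per locus divided by median-ratio size factors. The size factors, computed on the recovered reads of 2300 loci with reads in all 6 libraries (1322 pseudogenes, 758 protein-coding, 76 miRNA loci), matched the deposited step of each library within a relative difference of 2.3e-15. Reads were recovered as pairs of whole numbers, within a relative tolerance of 1e-14, at 100% of values above 0.

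The authors' deposited table also holds a log2 fold change, a p-value and its adjusted form for each of their comparisons. Loci with a mean of at least 1 entered limma (version 3.58.1, under R 4.3.3) on the scale log2(value + 1), which understates changes of low loci, with all 6 libraries in 1 fit, a trended prior and 3 residual degrees of freedom. Calls are two-sided Benjamini-Hochberg adjusted p under 0.05 over 11376 loci. The 2 libraries of a genotype are biological replicates, per the labels. The script was tested on simulated reads. Biotypes came from RefSeq for 31722 loci. Coordinates and sequences are from TAIR10.1, not from the table, which holds none. The members and lists were chosen with earlier results of these data known. Besides the 7 members, named GRAS genes are up to 4 with the smallest adjusted p (RGA, GAI, LAS and SCL7), all POR genes are given, and the 3 nearest patterns of each sum.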

Additional observations from a re-analysis of the deposited data

How the results depend on the processing

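No paired analysis was possible because the deposited columns are means and the recovered libraries carry no replicate number. Median-ratio rescaling gave the main values back by construction. Trimmed-mean rescaling moved the median log2 difference of all loci by -1.03, 0.72 and -0.21 in ein5 dcl4 against Col-0, ein5 dcl4 dcl2 against ein5 dcl4 and ein5 dcl4 dcl2 against Col-0. Equal table totals moved it by -3.13, 1.15 and -1.40, and equal miRNA totals by 0.05, -0.82 and -0.27. The rescaled medians in ein5 dcl4 against Col-0 were 0.46 with trimmed-mean factors and -1.63 with equal table totals.

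In ein5 dcl4 against Col-0, 1 member was higher, but 0 with equal table totals, 3 with equal miRNA totals and 2 with limma-voom. Of all loci 16.8%, 36.2% and 60% were higher in these settings, against 38.7% in the main fit. Lower were 2 members, but 6 with equal table totals, where 49.7% of all loci were lower, against 6.45% in the main fit. Without a Col-0 library these calls were lost, as set out above. In ein5 dcl4 dcl2 against ein5 dcl4, 3 members were higher and 1 lower. With equal miRNA totals 3 were lower, and with a pseudocount of 5 there were 2. Of all loci 46.4% and 31.7% were lower in these settings, against 35.9% in the main fit. In ein5 dcl4 dcl2 against Col-0, 2 members were higher, but 0 with trimmed-mean rescaling, equal table totals or equal miRNA totals. Of all loci 1.12%, 0.65% and 0.024% were higher in these settings, against 1.08% in the main fit. As reported 0 members were lower, but 4 were with equal table totals and 3 with equal miRNA totals. Of all loci 39.7% and 11% were lower there, against 0.299% in the main fit.

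Other GRAS genes higher in ein5 dcl4 over Col-0 numbered 17, but 11 with trimmed-mean rescaling, 7 with equal table totals, 5 with a mean of at least 10, 5 with the filter set on the 4 libraries other than ein5 dcl4 (chosen after seeing the data) and 5 to 17 without single libraries. Those lower in ein5 dcl4 dcl2 than in ein5 dcl4 numbered 16, but 5 with a mean of at least 10, 5 with that filter, 8 with only the 2 genotypes compared and 8, 9, 10 or 11 without single libraries. In ein5 dcl4 dcl2 against Col-0 the count was 0 both ways. With limma-voom 8 were higher, as were 42.2% of all loci. With equal table totals and equal miRNA totals 4 and 1 were lower, as were 39.7% and 11% of all loci.

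Signs turned as follows. In ein5 dcl4 against Col-0, SCL22 and SCL27 came to -0.18 and -0.18 with trimmed-mean rescaling and -1.88 and -1.89 with equal table totals. In ein5 dcl4 dcl2 against Col-0, MIR171A, MIR171B, MIR171C and SCL6 came to -1.55, -0.34, -0.39 and -2.39 with equal table totals and to -1.79, -0.84, -0.88 and -2.46 with equal miRNA totals, and SCL6 to -0.73 with trimmed-mean rescaling and -0.30 without ein5 dcl4 dcl2 library b. MIR170 came to 0.01 with a pseudocount of 5, 0.35 with limma-voom and 0.88 without ein5 dcl4 dcl2 library b. SCL22 came to 0.19 without Col-0 library a and SCL27 to 0.27 without ein5 dcl4 dcl2 library b. The cause was not tested.

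Without the 10 miRNA loci with the largest means, the share of the 4 MIR loci was 0.110% in ein5 dcl4 dcl2, 0.0228% in ein5 dcl4 and 0.189% in Col-0, against 0.0137%, 0.00583% and 0.0285% with all miRNA loci. Single libraries gave 0.0132% to 0.0143%, 0.00419% to 0.00747% and 0.0240% to 0.0330%, and SCL to MIR ratios of 0.0786 to 0.0948, 16.3 to 28.0 and 0.418 to 0.478. Depth limits all 4 MIR loci in ein5 dcl4, with at most 1 read each per library.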
